A study of Mus musculus with 20 samples.

Results

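A set of 9 cytokine signalling genes was followed in mouse TH17 cells, the CD4 T cells that make interleukin-17. They were the Janus kinase genes Jak1, Jak2, Jak3 and Tyk2, the suppressor genes Socs1, Socs2 and Socs3, and the transcription factor genes Stat4 and Stat6. They were taken by name as 9 of the 24862 gene rows of each count table. The rule itself uses no measured value, but the genes were chosen with earlier results of these data known. RNA-seq libraries numbered 12, in 6 groups of 2, and all cells came from C57BL/6 mice whose ages the labels do not give. One pair of groups came from live animals: GFP-positive TH17 cells, 50000 a library, sorted out of the central nervous system (CNS) or out of the ileum. The gene that drives GFP is not given in the sources used here. TH17(β) cultures, kept in 2 ng/ml TGF-β1 and 20 ng/ml IL-6, overexpressed c-Rel (Ad-c-Rel) or received the matching control construct (Ad-control). Pathogenic TH17(23) cultures received IL-6, IL-1β and IL-23 at 20 ng/ml each and came from miR-21-/- or Control mice. All 4 kinds of culture started from naive CD4 T cells of lymph node or spleen, stimulated through CD3ε and CD28 with antibodies blocking IL-4 and IFN-γ.

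Cytokine receptors of this family have no kinase of their own and carry Janus kinases (JAKs) bound to their tails. When a cytokine joins its receptor chains, the JAKs phosphorylate the receptor and then STAT proteins, which pair, enter the nucleus and bind promoters. JAK1 serves receptors with the gp130 chain or the common gamma chain, JAK3 binds the common gamma chain alone, and JAK2 with TYK2 serves the IL-12 and IL-23 receptors. STAT4 acts mainly downstream of IL-12 in T cells, and STAT6 downstream of IL-4 and IL-13. IL-6 and IL-23 act in TH17 cells mainly through STAT3. The SOCS proteins close the loop: SOCS1 restrains interferon signalling, SOCS3 binds gp130 and restrains IL-6, and SOCS2 is best known for restraining growth hormone.

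STAT pairs bind a palindrome written TTCNNNGAA, and STAT6 pairs favour the wider form TTCNNNNGAA, where N is any base. The 250 bases before the RefSeq start of transcription (build GRCm38.p6) were searched on both strands for these patterns and for the NF-κB consensus, the motif family of c-Rel. Socs2 had no entry, so 8 of the 9 genes were searched. The windows of Jak2 and Stat4, which fell in CNS, and of Socs1 and Socs3, which were called in Ad-c-Rel cells, are shown for the genes the results turn on. Capitals mark a match to TTCNNNGAA. Jak2 is on the plus strand at chr19:29251553-29251802, Stat4 (the first of 2 listed starts) on the plus strand at chr1:51986898-51987147, Socs1 on the minus strand at chr16:10785537-10785786 and Socs3 on the minus strand at chr11:117969367-117969616.
Jak2: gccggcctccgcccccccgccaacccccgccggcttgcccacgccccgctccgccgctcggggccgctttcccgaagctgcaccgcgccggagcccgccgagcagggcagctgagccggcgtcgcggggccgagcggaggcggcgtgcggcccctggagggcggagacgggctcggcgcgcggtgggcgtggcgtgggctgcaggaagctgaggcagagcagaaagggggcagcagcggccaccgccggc
Stat4: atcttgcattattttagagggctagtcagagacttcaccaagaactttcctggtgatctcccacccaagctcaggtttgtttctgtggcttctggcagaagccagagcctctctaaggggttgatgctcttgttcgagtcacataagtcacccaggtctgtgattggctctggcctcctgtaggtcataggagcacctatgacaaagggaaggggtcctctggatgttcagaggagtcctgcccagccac
Socs1: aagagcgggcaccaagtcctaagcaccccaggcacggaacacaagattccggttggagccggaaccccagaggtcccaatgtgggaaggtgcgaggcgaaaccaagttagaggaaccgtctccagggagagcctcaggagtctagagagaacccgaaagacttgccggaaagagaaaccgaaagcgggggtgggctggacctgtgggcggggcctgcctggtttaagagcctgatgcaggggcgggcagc
Socs3: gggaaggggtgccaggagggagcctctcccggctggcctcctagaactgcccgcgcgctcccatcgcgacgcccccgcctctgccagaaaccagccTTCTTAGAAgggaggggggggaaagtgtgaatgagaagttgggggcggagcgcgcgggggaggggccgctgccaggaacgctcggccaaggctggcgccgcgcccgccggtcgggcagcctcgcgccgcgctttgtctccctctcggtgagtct
Socs3 held TTCTTAGAA, from 154 to 146 bases before the start listed for this window. The window lies wholly inside the annotated Socs3 span (chr11:117966079-117970336), so by that annotation the match is within the gene. TTCTTAGAA was the only match to any of the 3 motifs in the windows of the 8 genes. Over 32841 RefSeq promoter windows of the same length, 7.02% held TTCNNNGAA, 5.85% held TTCNNNNGAA and 3.9% held the NF-κB consensus. A match describes letters and not a bound site. The bases before the start were 80.8% G or C in Jak2, 71.6% in Socs3, 61.2% in Socs1 and 51.6% in Stat4.

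Gene counts summed to between 15421743 and 19930807 in the sorted and Ad libraries and to between 32766097 and 36711252 in the miR-21 set. Levels are given below as counts scaled to the gene count total of the library (CPM), which compare a gene between libraries and not one gene with another. Rel stood at 57.5 and 61.9 CPM in Ad-c-Rel cells, against 10.8 and 7.02 CPM in Ad-control cells. Mir21a, the precursor gene of miR-21, had 0 and 0 counts in miR-21-/- cells, against 25 and 20 in Control cells. The 2 libraries of a group correlated at 0.928 for CNS and 0.918 for ileum, and at 0.989 to 0.996 in the culture groups. The T cell marker list summed to 5275 to 5426 CPM in CNS and 6198 to 6408 CPM in ileum, and Cd4 averaged 685 CPM in CNS and 677 CPM in ileum. Markers of other cells differed much more, and their values stand beside the comparison of the tissues. The sorted libraries, the TH17(β) cultures and the TH17(23) cultures differ in origin and at least partly in library kit, so kit and origin cannot be told apart in levels set across the 3 pairs.

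Jak2, Jak3 and Stat4 had the widest ranges over the 6 groups, and the means of the other 6 genes spanned 2.62-fold or less. Jak2 averaged 107 ± 49.9 CPM in CNS and 847 ± 189 CPM in ileum, 173 ± 5.19 CPM in Ad-c-Rel and 163 ± 0.115 CPM in Ad-control, and 461 ± 7.29 CPM in miR-21-/- and 520.2 ± 34.3 CPM in Control cells (SD, n = 2 each). The order from high to low was ileum, Control, miR-21-/-, Ad-c-Rel, Ad-control and CNS, no neighbouring groups overlapped, and the highest mean was 7.89-fold the lowest.

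Jak3, whose kinase serves the common gamma chain cytokines such as IL-2, averaged 203 ± 14.9 CPM in CNS and 131 ± 27.2 CPM in ileum, 595 ± 24.8 CPM in Ad-c-Rel and 715 ± 113 CPM in Ad-control, and 1009 ± 2.52 CPM in miR-21-/- and 829 ± 105 CPM in Control cells. It was thus highest in the TH17(23) cultures, lower in the TH17(β) cultures and lowest in the sorted cells, with a 7.68-fold range. Only Control and Ad-control overlapped among neighbours in that order.

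Jak1 ranged less, over 2.05-fold. It averaged 457 ± 171 CPM in CNS and 589.7 ± 61.7 CPM in ileum, 744 ± 24.1 CPM in Ad-c-Rel and 739 ± 19.0 CPM in Ad-control, and 363 ± 14.4 CPM in miR-21-/- and 365 ± 37.5 CPM in Control cells. Ad-c-Rel and Ad-control stood at the top, followed by ileum, CNS, Control and miR-21-/-, and of the 5 neighbouring pairs only Ad-control and ileum were separate.

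Tyk2 averaged 56.3 ± 47.3 CPM in CNS and 36.9 ± 8.33 CPM in ileum, 48.3 ± 4.06 CPM in Ad-c-Rel and 53.6 ± 9.26 CPM in Ad-control, and 89.5 ± 15.1 CPM in miR-21-/- and 96.8 ± 2.83 CPM in Control cells. Its 2 CNS libraries, at 89.8 and 22.9 CPM, spanned nearly the whole range of the gene, and only Ad-c-Rel and ileum were separate neighbours in the order Control, miR-21-/-, CNS, Ad-control, Ad-c-Rel and ileum. The range was 2.62-fold.

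**Figure D1:**
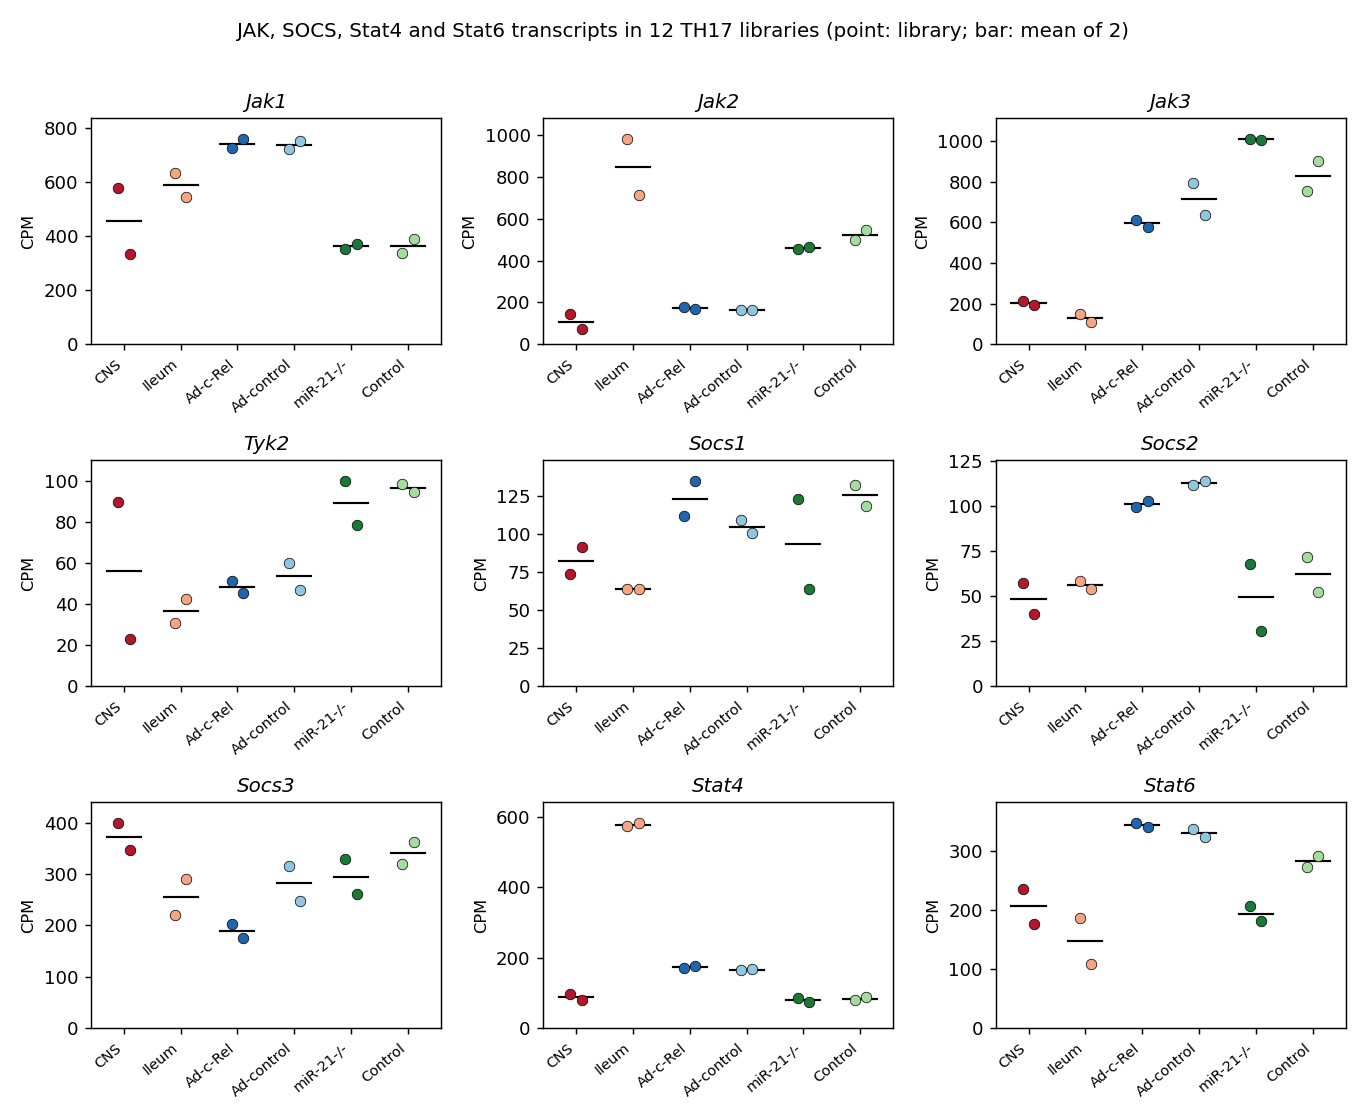
Levels of the 9 genes in each of the 12 libraries (points) by group, in CPM on linear axes from 0 that differ between genes. Short lines give the mean of 2 libraries. Jak2 and Stat4 are far higher in ileum than in CNS, and Jak3 is highest in the TH17(23) cultures.

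Stat4 stood apart in ileum. It averaged 89.96 ± 12.4 CPM in CNS and 579 ± 6.14 CPM in ileum, 174 ± 2.87 CPM in Ad-c-Rel and 167 ± 2.89 CPM in Ad-control, and 80.1 ± 8.93 CPM in miR-21-/- and 84.0 ± 5.89 CPM in Control cells. The order was ileum, Ad-c-Rel, Ad-control, CNS, Control and miR-21-/-, over a 7.23-fold range, and the CNS, Control and miR-21-/- levels overlapped.

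Stat6 followed another order, from Ad-c-Rel and Ad-control through Control, CNS and miR-21-/- to ileum, over a 2.33-fold range. It averaged 206 ± 41.0 CPM in CNS and 148 ± 55.7 CPM in ileum, 344 ± 4.76 CPM in Ad-c-Rel and 330.2 ± 9.35 CPM in Ad-control, and 194 ± 17.96 CPM in miR-21-/- and 282 ± 13.1 CPM in Control cells. The CNS, miR-21-/- and ileum libraries overlapped.

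Among the suppressors, Socs3 averaged 373 ± 37.6 CPM in CNS and 255 ± 49.3 CPM in ileum, 188 ± 19.3 CPM in Ad-c-Rel and 282 ± 48.1 CPM in Ad-control, and 294 ± 48.2 CPM in miR-21-/- and 341 ± 31.5 CPM in Control cells. The order was CNS, Control, miR-21-/-, Ad-control, ileum and Ad-c-Rel, over a 1.98-fold range, and only ileum and Ad-c-Rel were separate neighbours. Socs1 averaged 82.5 ± 12.7 CPM in CNS and 63.6 ± 0.0461 CPM in ileum, 123 ± 16.5 CPM in Ad-c-Rel and 105 ± 6.23 CPM in Ad-control, and 93.1 ± 41.8 CPM in miR-21-/- and 125 ± 10.0 CPM in Control cells. The order was Control, Ad-c-Rel, Ad-control, miR-21-/-, CNS and ileum, over a 1.97-fold range, and 3 of the 5 neighbouring pairs overlapped. Socs2 averaged 48.6 ± 12.03 CPM in CNS and 56.2 ± 3.28 CPM in ileum, 101 ± 2.50 CPM in Ad-c-Rel and 113 ± 1.43 CPM in Ad-control, and 49.3 ± 26.4 CPM in miR-21-/- and 62.2 ± 13.6 CPM in Control cells. The order was Ad-control, Ad-c-Rel, Control, ileum, miR-21-/- and CNS, over a 2.33-fold range, with no overlap between the first 3 groups.

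Libraries of cells sorted from the CNS held far fewer Jak2 and Stat4 transcripts than those from the ileum, and markers of other cells differed between them too. Jak2 had 143 and 72.1 CPM in CNS, against 981 and 713 CPM in ileum. Stat4 had 98.7 and 81.2 CPM in CNS, against 575 and 583 CPM in ileum. The groups lay far apart for both genes, and the Stat4 libraries of each tissue lay close together. The log2 fold change was -3.19 for Jak2 (SE 0.377, 95% interval -4.14 to -2.24, adjusted p = 0.00869) and -2.89 for Stat4 (SE 0.164, 95% interval -3.30 to -2.47, adjusted p = 0.00106), by edgeR's quasi-likelihood test with Benjamini-Hochberg adjustment over 12038 genes. Stat4 ranked 64 by p among those genes and Jak2 ranked 360. Each comparison here was fitted with TMM scaling and called a gene at an adjusted p under 0.05.

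The other 7 genes were not called between the tissues. Of the 9, 0 were called higher and 2 lower, where 9.66% of all genes tested were called, 4% higher and 5.66% lower. Higher genes made up 41.4% of the calls, against 70.6% with T cell scaling and 55.7% at library totals. The same 2 were those with an unadjusted p under 0.05, which 24.4% of all genes had. The median log2 fold change of the 9 was 0.18, beside 0.08 over all genes. Jak1 had 578 and 336 CPM in CNS, against 633 and 546 CPM in ileum (log2 fold change -0.57, 95% interval -1.25 to 0.11, adjusted p = 0.278). The lower CNS library lay below both ileum libraries and the other lay between them. Over the 11 alternative fits the log2 fold change of Jak1 ranged from -1.03, without CNS replicate 1, to -0.12 with T cell scaling. Wherever a library is left out, its group holds 1 library, which is assumed to vary like the other group. A p from such a fit thus rests on replicate spread in the other group alone, which edgeR draws toward the spread of all genes. Jak3 had 214 and 193 CPM in CNS, against 151 and 112 CPM in ileum. Its libraries did not overlap, but its log2 fold change of 0.42 had an interval of -0.14 to 0.99 (adjusted p = 0.330).

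Tyk2 had 89.8 and 22.9 CPM in CNS, against 31.0 and 42.8 CPM in ileum. The CNS libraries lay on either side of the ileum ones, and the log2 fold change of 0.41 had an interval of -1.23 to 2.04 (adjusted p = 0.788). Without CNS replicate 1 it was -0.91. Stat6 had 235 and 177 CPM in CNS, against 187 and 108 CPM in ileum, with overlap and a log2 fold change of 0.27 (95% interval -0.54 to 1.08, adjusted p = 0.695).

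Socs3 had 399 and 346 CPM in CNS, against 219.9 and 289.6 CPM in ileum. The libraries were apart, with CNS above, and the log2 fold change of 0.35 had an interval of -0.11 to 0.81 (adjusted p = 0.323). Socs1 had 73.5 and 91.5 CPM in CNS, against 63.5 and 63.6 CPM in ileum (log2 fold change 0.18, 95% interval -0.47 to 0.83, adjusted p = 0.761). Socs2 had 57.1 and 40.05 CPM in CNS, against 58.5 and 53.9 CPM in ileum, with overlap (log2 fold change -0.41, 95% interval -1.20 to 0.37, adjusted p = 0.510). Without overlap in CPM, 3 of the 9 genes were higher and 2 lower in CNS, where 60.5% of all genes did not overlap, 38.9% higher and 21.6% lower.

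Other cells moved with these differences. The 20 myeloid and microglial markers summed to 38806 to 42479 CPM in CNS and 5378 to 5680 CPM in ileum; 18 of 20 were called higher and none was at 0. Lyz2 averaged 5656 CPM in CNS and 645 CPM in ileum, and Tmem119 403 and 0.0894 CPM. B and plasma cell markers summed to 336 to 339 CPM in CNS and 4054 to 4181 CPM in ileum, with 5 of 7 tested called lower and Ms4a1 and Pax5 among those at 0 in CNS. Neutrophil markers summed to 224 to 225 CPM in CNS and 0.117 to 0.615 CPM in ileum, with Ngp, Camp, Ltf, Mpo, Elane and Ly6g at 0 in ileum. The epithelial list summed to 17.1 to 19.2 and 0 to 12.5 CPM, and the neural list to 98.3 to 117 and 82.7 to 104 CPM, CNS first in each. Scaled to the T cell markers in place of all genes, Jak2 was lower in CNS by a log2 fold change of -2.73 (adjusted p = 0.0105). Stat4 was lower by -2.45 (adjusted p = 0.00158). Such scaling sets 1 factor per library, so it cannot remove Jak2 or Stat4 RNA that came from other cells. Fewer cells of a type and less RNA per cell cannot be told apart in such bulk samples. The part of other cells in the values was not tested.

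The ratio of counts within a library needs no scaling. Stat4 to Stat6 was 0.420 and 0.459 in CNS, against 3.07 and 5.38 in ileum. Jak2 to Tyk2 was 1.59 and 3.15 in CNS, against 31.6 and 16.7 in ileum. Both ratios were far lower in each CNS library than in each ileum library, and the ileum values stood above those of all culture libraries as well. Stat4 to Stat6 lay between 0.292 and 0.522 in the 8 culture libraries, and Jak2 to Tyk2 between 2.71 and 5.91.

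**Figure D2:**
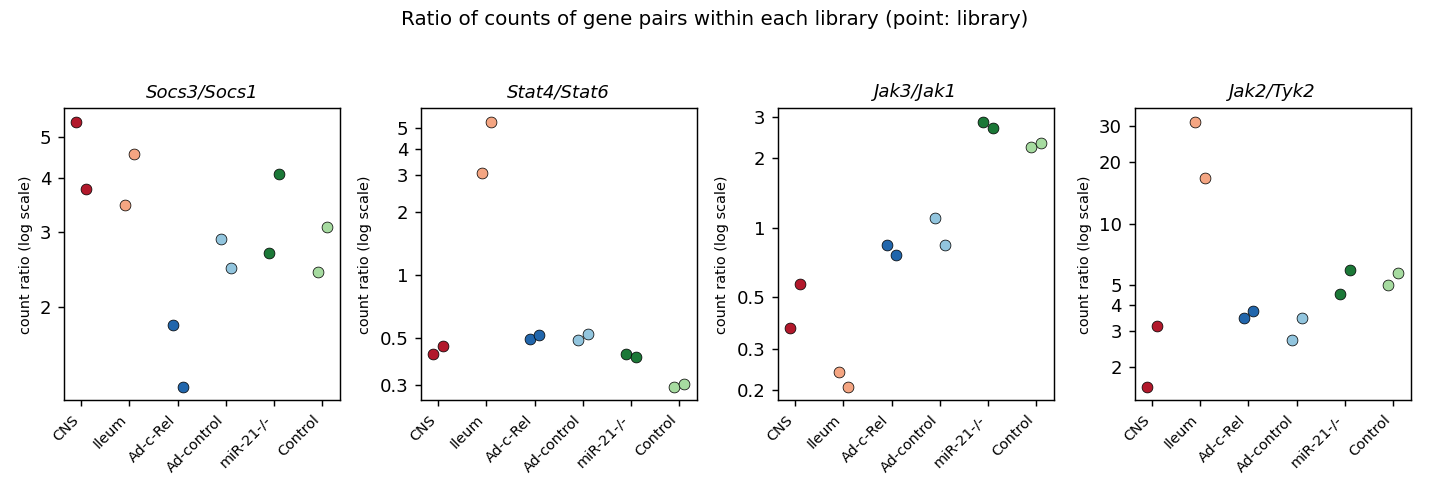
Ratios of counts within each library (points, log axis) for Stat4 to Stat6, Jak2 to Tyk2, Socs3 to Socs1 and Jak3 to Jak1, by group. The ileum libraries hold the highest Stat4 to Stat6 and Jak2 to Tyk2 ratios, 3.07 and 5.38 for the first and 31.6 and 16.7 for the second.

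The remaining genes of the pathway, 74 in 5 lists, moved in both directions between the tissues. Of 69 tested, 9 were called higher and 16 lower in CNS, with a median log2 fold change of -0.19. Over all genes tested, 4% were called higher and 5.66% lower, with a median of 0.08. Of the other 5 STAT genes, Stat3, the mediator of IL-6 and IL-23, averaged 378 ± 11.97 CPM in CNS and 1080 ± 80.1 CPM in ileum (log2 fold change -1.71, adjusted p = 0.00238). Stat5a and Stat5b, which act downstream of IL-2, also fell, by 2.33 and 1.81 on the log2 scale (adjusted p = 0.00655 and 0.0167).

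Of 23 receptor genes tested, 3 were called higher and 6 lower in CNS. Il23r, the specific chain of the IL-23 receptor, averaged 12.7 CPM in CNS and 281 CPM in ileum (log2 fold change -4.67). Il4ra, the chain through which IL-4 engages STAT6, averaged 242 CPM in CNS and 627 CPM in ileum (log2 fold change -1.57). Il12rb2, the specific chain of the IL-12 receptor, was picked out after its values were seen, with 19.4 CPM in CNS and 61.4 CPM in ileum (log2 fold change -1.86, adjusted p = 0.0231). Ifngr1, a chain of the IFN-γ receptor, fell by 1.52 on the log2 scale, and Il13ra1, a chain of the IL-13 receptor, rose by a log2 fold change of 3.38 (121 CPM in CNS, 10.1 CPM in ileum).

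Of the 14 other inhibitor genes, 1 was called higher and 1 lower. Ptpn6, which encodes the phosphatase SHP-1, averaged 496 CPM in CNS and 68.9 CPM in ileum (log2 fold change 2.64, adjusted p = 0.00440). Ptpn2, a phosphatase that acts on JAK1 and JAK3, fell by 1.44 on the log2 scale (adjusted p = 0.0127). Of 13 ligand genes tested, Osm and Csf2 were called higher (log2 fold changes 3.64 and 2.54) and Il10 and Il21 lower (-4.01 and -2.69). The Csf2 call was lost without either CNS library (adjusted p = 0.114 and 0.141). The Il21 call was lost in 4 of the 11 alternatives, among them without CNS replicate 1 (adjusted p = 0.0811), at library totals (0.0504) and with T cell scaling (0.0633). Of the 14 target genes, 2 were called higher and 4 lower, among them Irf8 (1.56), Furin (-2.10), Pim2 (-1.70) and Batf (-1.42). The myeloid sums above moved with the genes that rose, and their part in those values was not tested.

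TH17(β) cells with added c-Rel had fewer Socs3 transcripts than their controls and, by a call that held in 3 of 10 alternative settings, slightly more Socs1. Socs3 had 202 and 175 CPM in Ad-c-Rel cells, against 316 and 248 CPM in Ad-control cells. Both Ad-c-Rel libraries lay below both Ad-control ones, and the log2 fold change was -0.52 (SE 0.0990, 95% interval -0.73 to -0.31, adjusted p = 0.00241), ranking 464 of 11711 genes by p. Without Ad-control replicate 1 it was -0.35. Socs1 had 111 and 135 CPM in Ad-c-Rel cells, against 109 and 100.4 CPM in Ad-control cells, and the lower Ad-c-Rel library was barely above the higher Ad-control one. Its log2 fold change was 0.29 (SE 0.0935, 95% interval 0.09 to 0.49, adjusted p = 0.0494). That call was lost when scaled by library totals (0.23, adjusted p = 0.123) or by DESeq2's size factors (adjusted p = 0.0508), and in DESeq2's own test (adjusted p = 0.0809). It was also lost without Ad-c-Rel replicate 2 (0.13, adjusted p = 0.592), without Ad-control replicate 1 or 2 (adjusted p = 0.111 and 0.195) and in 1 fit over all 12 libraries (adjusted p = 1).

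Of the 9 genes, 1 was called higher and 1 lower, where 14.3% of all genes were called, 8.16% higher and 6.12% lower. Higher genes made up 57.1% of the calls, against 39.4% at library totals. An unadjusted p under 0.05 was found for 3 of the 9 (Socs1, Socs3 and Jak3) and for 28.6% of all genes. The median log2 fold change of the 9 was 0.07, beside -0.01 over all genes. The Socs3 to Socs1 ratio of counts was 1.81 and 1.30 in Ad-c-Rel libraries, against 2.89 and 2.46 in Ad-control libraries, so the ratio was lower in both Ad-c-Rel libraries. Socs2 had 99.4 and 103 CPM in Ad-c-Rel cells, against 112 and 114 CPM in Ad-control cells (log2 fold change -0.10, SE 0.0783, adjusted p = 0.428).

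Jak3 had 612 and 577 CPM in Ad-c-Rel cells, against 795 and 636 CPM in Ad-control cells. The groups did not overlap, and the log2 fold change of -0.21 had an interval of -0.40 to -0.02 (SE 0.0895, adjusted p = 0.142). Over the 10 alternative fits the log2 fold change of Jak3 ranged from -0.34, without Ad-control replicate 2, to -0.0561. The Jak3 to Jak1 ratio was 0.842 and 0.758 in Ad-c-Rel libraries, against 1.095 and 0.845 in Ad-control libraries, and the groups barely missed overlapping.

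None of the other kinase genes, nor Stat4 or Stat6, was called. Jak1 had 727 and 761 CPM in Ad-c-Rel cells, against 726 and 753 CPM in Ad-control cells (log2 fold change 0.07, adjusted p = 0.596). Jak2 had 176 and 169 CPM in Ad-c-Rel cells, against 163 and 163 CPM in Ad-control cells, and its log2 fold change of 0.14 had an interval of -0.02 to 0.30 (adjusted p = 0.230). Tyk2 had 51.1 and 45.4 CPM in Ad-c-Rel cells, against 60.1 and 47.0 CPM in Ad-control cells (log2 fold change -0.09, adjusted p = 0.659). Stat4 had 172 and 176 CPM in Ad-c-Rel cells, against 165 and 169 CPM in Ad-control cells (log2 fold change 0.12, 95% interval -0.04 to 0.28, adjusted p = 0.304). Stat6 had 347 and 340.5 CPM in Ad-c-Rel cells, against 337 and 324 CPM in Ad-control cells (log2 fold change 0.12, 95% interval -0.04 to 0.27, adjusted p = 0.303). In CPM, 4 of the 9 genes were higher and 3 lower without overlap, where 58.7% of all genes did not overlap, 21.4% higher and 37.3% lower.

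**Figure D3:**
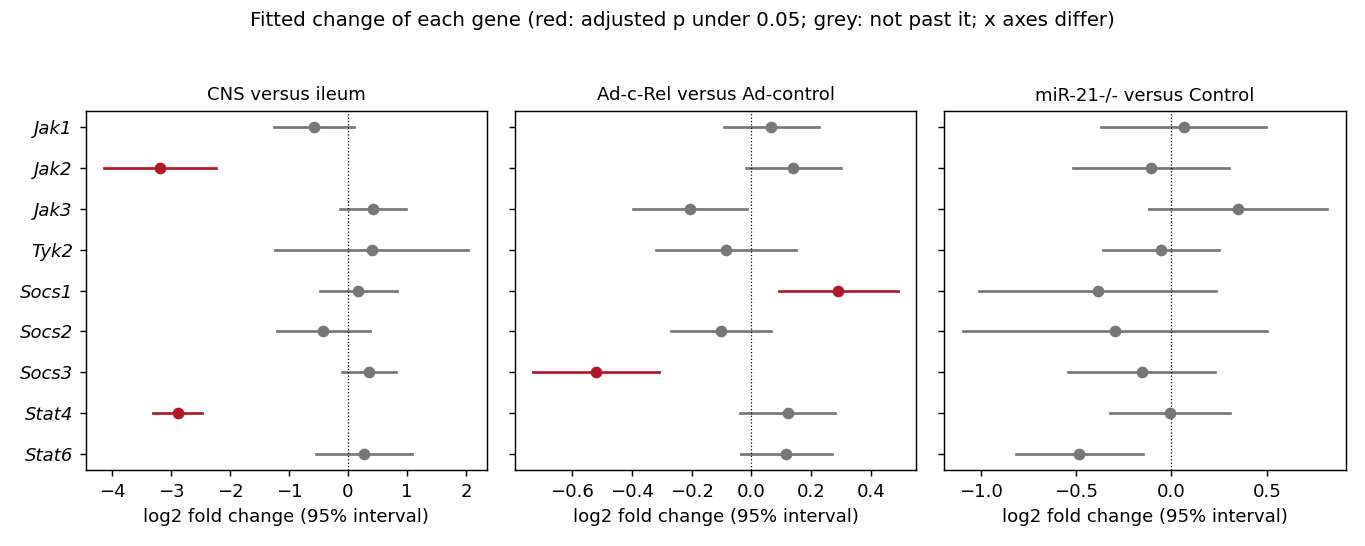
Log2 fold changes of the 9 genes in the 3 comparisons (points, with 95% intervals as lines, red where the adjusted p is under 0.05; x axes differ), with CNS over ileum, Ad-c-Rel over Ad-control and miR-21-/- over Control. Jak2 (-3.19) and Stat4 (-2.89) lie far below 0 in the first, Socs3 (-0.52) below and Socs1 (0.29) above 0 in the second, and the values of the third lie between -0.48 and 0.35.

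More of the other pathway genes rose than fell with c-Rel. Of 63 tested, 18 were called higher and 3 lower (15 and 5 at library totals), with a median log2 fold change of 0.19. Over all genes tested, 8.16% were called higher and 6.12% lower, with a median of -0.01. In 1 fit over all 12 libraries no gene of the pathway lists was called. Ligand genes made up 7 of the pathway calls of the main fit, all higher, out of 9 tested (median 0.98). Il2, the T cell growth factor, averaged 6.78 CPM in Ad-c-Rel and 0.646 CPM in Ad-control cells (log2 fold change 3.37). Csf2, which encodes GM-CSF, rose by a log2 fold change of 2.19, Il21 by 0.83 and Lif by 0.79.

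Receptor genes gave 6 calls out of 21 tested, all higher. Il12rb1, the chain shared by the IL-12 and IL-23 receptors, averaged 185 CPM in Ad-c-Rel and 130 CPM in Ad-control cells (log2 fold change 0.57, adjusted p = 9.00e-05). Il23r averaged 123 and 78.0 CPM in these groups (0.71), and the IL-2 receptor chain genes Il2rg and Il2ra rose by log2 fold changes of 0.39 and 0.33. Of the other STAT genes, Stat5a rose by a log2 fold change of 0.43 (adjusted p = 0.00191) and Stat3 by 0.27 (adjusted p = 0.0227). None of the 14 other inhibitor genes was called by edgeR, where 3 had an unadjusted p under 0.05, and DESeq2 called 0. Of 14 target genes, Pim2 (0.85) and Furin (1.19) were among the 3 called higher, and Irf1 (-0.44) and Bcl6 (-0.35) were the 2 called lower. The calls of Stat3, Il2ra, Irf1 and Bcl6 were lost in at least 1 fit that left out a library, with adjusted p values up to 0.242, 0.0986, 0.0650 and 0.135 in that order of genes. T cell markers summed to 7610 to 7638 CPM in Ad-c-Rel and 7151 to 7391 CPM in Ad-control cells, and myeloid markers to 252 to 259 and 273 to 281 CPM.

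edgeR, fitted with the group alone, called none of the 9 genes between miR-21-/- and Control TH17(23) cells. It called 0 of all 13428 genes tested (0%), with a smallest adjusted p of 0.0625, and DESeq2 called 793, while 21% of all genes had an unadjusted p under 0.05. Among the 9 genes 1 had such a p, and DESeq2 called 0 of the 9. Stat6 had 206 and 181 CPM in miR-21-/- cells, against 273 and 292 CPM in Control cells. Both miR-21-/- libraries lay below both Control ones, and the log2 fold change of -0.48 had an interval of -0.82 to -0.15 (SE 0.135, adjusted p = 0.158). The Stat4 to Stat6 ratio was 0.419 and 0.408 in miR-21-/- libraries, against 0.292 and 0.302 in Control libraries, with each miR-21-/- library above each Control library. Stat4 itself had 86.4 and 73.8 CPM in miR-21-/- cells, against 79.8 and 88.1 CPM in Control cells (log2 fold change -0.01, 95% interval -0.32 to 0.31, adjusted p = 0.980).

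Jak3 had 1010.3 and 1006.8 CPM in miR-21-/- cells, against 754 and 903 CPM in Control cells. It was the only one of the 9 that was higher without overlap, and its log2 fold change of 0.35 had an interval of -0.12 to 0.82 (adjusted p = 0.332). The Jak3 to Jak1 ratio was 2.86 and 2.70 in miR-21-/- libraries, against 2.23 and 2.31 in Control libraries. Jak2 had 455 and 466 CPM in miR-21-/- cells, against 496 and 544 CPM in Control cells, also without overlap (log2 fold change -0.11, 95% interval -0.51 to 0.30, adjusted p = 0.732). Of the 9 genes 1 was thus higher and 2 were lower without overlap, where 54.3% of all genes did not overlap, 23.7% higher and 30.6% lower.

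The other genes overlapped between the groups. Jak1 had 353 and 373 CPM in miR-21-/- cells, against 338 and 391 CPM in Control cells (log2 fold change 0.06, adjusted p = 0.853). Tyk2 had 100.1 and 78.8 CPM in miR-21-/- cells, against 98.8 and 94.8 CPM in Control cells (log2 fold change -0.05, adjusted p = 0.819). Socs3 had 328 and 260.1 CPM in miR-21-/- cells, against 318 and 363 CPM in Control cells (log2 fold change -0.15, 95% interval -0.54 to 0.23, adjusted p = 0.585). For Socs1 and Socs2 the 2 miR-21-/- libraries were far apart. Socs1 had 123 and 63.6 CPM in miR-21-/- cells, against 132 and 118 CPM in Control cells (log2 fold change -0.39, 95% interval -1.01 to 0.24, adjusted p = 0.402). Socs2 had 68.0 and 30.6 CPM in miR-21-/- cells, against 71.8 and 52.5 CPM in Control cells (log2 fold change -0.30, 95% interval -1.09 to 0.50, adjusted p = 0.615). In both genes replicate 2 was the low miR-21-/- library, and replicate 2 was also the lower Control library. Deviations of same-numbered libraries correlated at 0.664 in this set, and the labels do not say that they are paired. With replicate 2 alone as the miR-21-/- group, the log2 fold changes were -0.81 for Socs1 and -0.85 for Socs2. Without miR-21-/- replicate 2 they were -0.0299 and 0.13. A group of 1 library has no spread of its own, so no call is read from these fits.

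Of 70 other pathway genes tested, edgeR called 0, 22 had an unadjusted p under 0.05 and DESeq2 called 11. The 5 of smallest p were 4 receptor genes with lower values and the inhibitor Pias3 with higher ones. Il12rb2 averaged 240 CPM in miR-21-/- and 457 CPM in Control cells (log2 fold change -0.88, adjusted p = 0.125). Il23r averaged 21.1 and 46.5 CPM in these groups (-1.08, adjusted p = 0.125), and Il2ra 1174 and 2735 CPM (-1.17, adjusted p = 0.136). Il10ra had a log2 fold change of -1.14 (adjusted p = 0.131) and Pias3, which encodes an inhibitor of STAT3, averaged 27.6 and 17.4 CPM (0.73, adjusted p = 0.129). DESeq2 gave adjusted p values from 0.000373 for Il2ra to 0.0157 for Pias3 over these 5. Over the lists, the medians were 0.08 for the other STAT genes, 0.08 for inhibitors, -0.20 for receptors, -0.67 for ligands and 0.13 for targets, beside -0.02 over all genes. T cell markers summed to 3419 to 3623 CPM in miR-21-/- and 4023 to 4037 CPM in Control cells, and their part in these values was not tested.

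**Figure D4:**
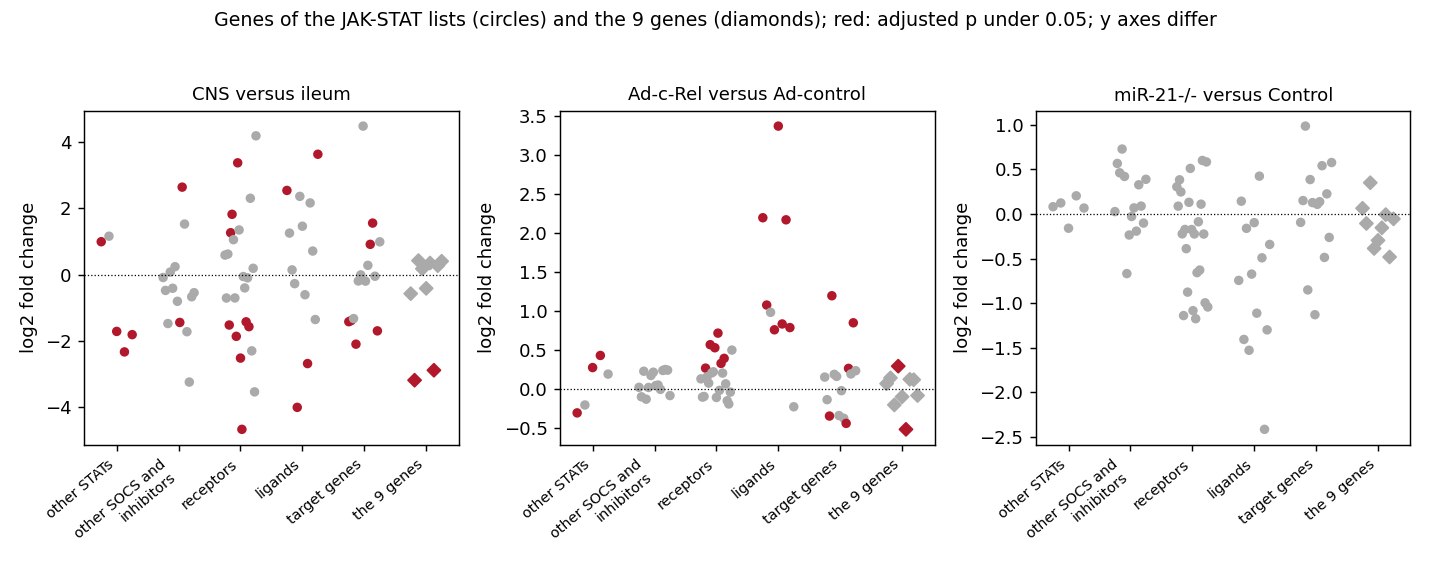
Log2 fold changes of the other pathway genes by list (circles) and of the 9 genes (diamonds) in the 3 comparisons, red where the adjusted p is under 0.05, with y axes that differ. In CNS over ileum 9 genes are called higher and 16 lower, in Ad-c-Rel over Ad-control 18 and 3, and in miR-21-/- over Control none is called by edgeR.

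The genes whose levels ran most like each of the 9 over the 12 libraries were taken by the smallest root mean square difference of centred log2(CPM + 1), among 9887 genes. Stat4 was closest to Ipmk (0.113) and Foxo1 (0.170), against a median of 1.34 over all candidates. Jak2 was closest to Emd (0.328) and Zcchc11 (0.356), against a median of 1.42. Jak3 was closest to Gpi1 (0.154) and Ezh2 (0.159), and Jak1 to Fbxw2 (0.125) and Stam2 (0.153). The nearest genes to Socs3 were Metrn (0.0987) and Irf2bpl (0.182), those to Socs1 were Scly (0.189) and Slc25a40 (0.203), and those to Socs2 were Sec23b (0.231) and Hif1a (0.237). Tyk2 was nearest to Rptor (0.224) and Agpat3 (0.253), and Stat6 to Sdccag8 (0.153) and Spcs3 (0.175). Within the 9, Socs1 and Stat6 were the most alike (0.339) and Jak3 and Stat4 the least (1.90). These values describe the 12 libraries, which share kits and origins by group.

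Some of the genes share their locus with another gene. In GRCm38.p6 the spans of Jak1 (chr4:101151974-101265282), Jak3 (chr8:71676383-71690577) and Stat6 (chr10:127642955-127660987) overlap Raver2, Insl3 and Nab2, and without a stated strand setting their reads may mix. None of these 3 overlapping genes was called in any comparison in which it was tested. The spans of Jak2 (chr19:29251803-29313095), Tyk2 (chr9:21104068-21131393), Socs1 (chr16:10783808-10785536), Socs2 (chr10:95383903-95417321), Socs3 (chr11:117966079-117970336) and Stat4 (chr1:51987106-52107189) overlap no other gene of the tables.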

How the data were processed

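The authors deposited 12 tables of unnormalized read counts by gene symbol. Listed without role or order in the submitters' processing notes are HTSeq 0.11.0, TopHat2 2.1.0, DESeq2, HOMER, SAMtools, Bowtie2, Trim Galore 0.4.4, CASAVA 1.4 and build mm10. The strand setting and annotation were not given in the sources used here. Per the labels' protocols, sorted cells were prepared with a SMART-Seq v4 low-input kit while TruSeq stranded total RNA served for the miR-21 set; that of the Ad libraries is not clearly given. The 8 ATAC-seq samples were not analysed here.

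Lines naming no gene (14.7% to 26.1% of a table) stayed out of totals and tests. Reads with several alignments were listed at 0 in the miR-21 set and at 2.25% to 3.52% elsewhere. The 4 libraries of a comparison were fitted alone in R 4.3.3 with edgeR 4.0.16 (filterByExpr, TMM, two-sided quasi-likelihood F test, Benjamini-Hochberg adjustment, threshold 0.05). All 9 genes passed the low-count filter each time. SEs were taken as |log2 fold change| divided by sqrt(F). Levels and overlaps use library totals. DESeq2 1.42.0 was an alternative, as were other scalings, no filter, leaving out each library, a replicate block and 1 fit over all libraries. The test was checked on simulated data. The labels do not say that replicates came from separate animals or cultures, so p-values measure only how these particular samples spread, possibly for technical reasons alone.

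Named genes are the 9, up to 4 called genes of each pathway list by smallest p (the 5 of smallest p where none is called), and the 2 nearest genes by level pattern with a mean of at least 5 CPM. Some genes that the naming rule takes are not reported here. The members and lists were chosen with earlier results of these data known. Motifs were searched in RefSeq promoter windows of GRCm38.p6.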

Additional observations from a re-analysis of the deposited data

How the results depend on the processing

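The lower Jak2 and Stat4 in CNS held under all 11 alternatives, 4 of which left out a library in turn. The log2 fold changes were -3.77 to -2.73 for Jak2 and -3.05 to -2.45 for Stat4. With T cell scaling, edgeR's adjusted p was 0.0105 for Jak2 and 0.00158 for Stat4. The lower Socs3 in Ad-c-Rel held in 9 of 10, 4 such fits among them, with log2 fold changes of -0.67 to -0.35. It was lost with 1 fit over 12 libraries (adjusted p = 0.685). The Socs1 call held in 3 of 10: with no filter, with the replicate block and without Ad-c-Rel replicate 1. DESeq2 gave it an adjusted p of 0.0809, and leaving out Ad-control replicate 1 or 2 gave 0.111 and 0.195. Jak1 in CNS passed with no filter (0.0163), and Jak3 in Ad-c-Rel with no filter (0.0315). A fit without 1 library takes its replicate spread from the other group alone, which edgeR draws toward the spread of all genes. Calls kept or lost in such fits are counted above, though the group of 1 library shows no spread of its own. Groups of 2 leave 2 residual degrees of freedom, and the causes of these shifts were not tested.

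Genes called in CNS against ileum numbered 1163 (41.4% higher), 2413 with no filter, 2542 with DESeq2, 4000 with 1 fit over 12 libraries and 893 to 1922 on leaving out a library, the last without Ileum replicate 1. Scaling moved the share called higher to 55.7% at library totals and 70.6% with T cell scaling, and the median of all genes from 0.08 to 0.28 and 0.52 on the log2 scale. Genes called in Ad-c-Rel numbered 1673 (57.1% higher, 39.4% at library totals), 1072 with DESeq2, 19 with 1 fit and 926 to 1369 on leaving out a library. In miR-21-/- they numbered 0, against 40 with no filter, 793 with DESeq2, 1 with 1 fit and 3 to 1327 on leaving out a library.

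Of the 9 genes, 2 to 3 were called in CNS on leaving out a library and 3 with no filter. In Ad-c-Rel 2 were called, against 1 with DESeq2 size factors, 1 at library totals, 1 with DESeq2, 0 with 1 fit, 3 with no filter and 1 to 2 on leaving out a library. In miR-21-/- 0 were called, and 0 to 2 on leaving out a library. Other pathway genes called numbered 25 in CNS (22 to 37 over the alternatives), 21 in Ad-c-Rel (0 with 1 fit), and 0 in miR-21-/- (11 with DESeq2, 0 to 17 on leaving out a library).

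The labels do not say that equal replicate numbers pair samples. Deviations of same-numbered libraries correlated at 0.0785 in the tissues, 0.107 with c-Rel and 0.664 in the miR-21 set, over 2 pairs each. With the replicate block, calls numbered 1309, 2802 and 4807 in the 3 comparisons, in that order. Of the 9 genes 3 were called with the block in Ad-c-Rel, adding Jak3 (adjusted p = 0.0131), and 4 in miR-21-/-: Jak3 (0.0450), Socs1 (0.0153), Socs2 (0.0312) and Stat6 (0.00231). In CNS the block lost the Il21 call (log2 fold change -2.75, adjusted p = 0.0513). Other pathway genes called with the block numbered 29 in Ad-c-Rel and 34 in miR-21-/-.

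Signs turned for genes that were not called. In CNS, Socs2 was 0.0299 with T cell scaling. On leaving out a library in CNS against ileum, Tyk2 ranged over -0.91 (without CNS replicate 1) to 1.03, Socs1 over -0.0450 (without CNS replicate 2) to 0.31 and Stat6 over -0.0886 (without Ileum replicate 2) to 0.75. In Ad-c-Rel, Tyk2 ranged over -0.24 to 0.0787 (without Ad-control replicate 1). In the miR-21 set, Stat4 was 0.00859 with DESeq2 size factors, 0.0139 with DESeq2 and 0.0115 with 1 fit, and Jak1 was -0.0064 at library totals. On leaving out a library there, Stat4 ranged over -0.10 to 0.12, Jak1 over -0.0638 to 0.22, Jak2 over -0.20 to 0.0121, Tyk2 over -0.13 to 0.0473 and Socs2 over -0.85 to 0.13. Scaled by TMM over 12 libraries, an alternative chosen after seeing the data, the ranges of levels were 9.18-fold for Jak2, 6.86-fold for Jak3 and 8.14-fold for Stat4, and Control became the lowest group for Jak1 and Stat4.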
